A study of Danio rerio with 3 samples.

Results

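The genes described here encode the proteins of the cytosolic ribosome and the factors that start and extend translation in zebrafish (Danio rerio) scales. They were taken by name, as probe sets with 1 gene symbol that begins with rpl, rps (the rps6k kinases left out), eif or eef. The rule found 159 probe sets for 138 of the 8793 named genes on the array, and where a gene had several, the one with the highest mean signal stood for it. Of the 138 genes, 73 are ribosomal proteins and 64 are translation factors. The remaining gene, rps19bp1, encodes a protein that binds a ribosomal protein and is given apart. A further 3 probe sets carry several symbols of which 1 fits the rule, and these were not used.

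A fish scale is a plate of bone in the skin, with osteoblasts that form bone, osteoclasts that resorb it and an epidermis over it. There were 3 groups with 1 array each. Scales of the BcP group were kept with 1 nM benzo[c]phenanthrene, a polycyclic aromatic hydrocarbon, and those of the 3-OHBcP group with 1 nM of its hydroxylated derivative, 3-hydroxybenzo[c]phenanthrene. Control scales are labelled as control only. All were held in Leibovitz medium for 6 h at 15 °C. The strain, age and number of fish or scales behind each sample, and whether a solvent was used, are not stated in the labels.

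The ribosome joins a small subunit, which reads the mRNA, to a large subunit, which links amino acids. Ribosomal protein genes are transcribed in every growing cell and need matched amounts of their products. In vertebrates their mRNAs begin with a terminal oligopyrimidine tract, through which the mTOR kinase controls how much of each mRNA is translated. Initiation factors bring the initiator tRNA and the capped mRNA to the small subunit, and elongation factors deliver aminoacyl tRNAs and move the ribosome along. The arrays measured mRNA amount only, so neither translation nor the phosphorylation of factors was observed.

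With 1 array per group there is no spread between replicates. No test was possible, and every difference below is a description of these 3 arrays. Values are log2 signals as the authors deposited them, and a difference is the log2 signal of one array minus that of another. Signals of different probe sets depend on their probes and are not ordered here as mRNA amounts. The array medians were 5.37 for BcP, 5.35 for 3-OHBcP and 5.32 for control. Of all named genes, 20.9% held exactly the same value on all 3 arrays, so a difference of 0 is common and is not a precise measure. The 18 probe sets for hybridisation spike-ins differed by a median of 0.29 for BcP minus control and 0.08 for 3-OHBcP minus control. For 3-OHBcP minus BcP their median was -0.17. The 24 probe sets for poly-A spike-ins had medians of 0.02, 0 and 0 in the same order. The part of either kind in the results was not tested. All 4 epidermal markers (signals from 7.58 to 12.97) and all 3 osteoclast markers (7.13 to 10.15) lay above the array medians. Of 8 osteoblast markers 7 were on the array, from 4.78 for sp7 to 12.47 for col1a1a, and both sp7 and runx2b lay below the medians. The 3 skeletal muscle markers lay between 3.62 and 6.35. Osteoblast markers were all higher on the BcP array than in control, from 0.02 for alpl to 0.75 for runx2a. On the 3-OHBcP array col10a1a and spp1 were equal to control, and the rest were higher, up to 0.62 for runx2a. The skeletal muscle markers were above control on each treated array, by 0.13 to 0.27. Osteoclast genes were mixed, with ctsk at 0 on both and mmp9 at -0.10 on the 3-OHBcP array. Epidermal and leukocyte markers did not differ alike within their lists. Among epidermal genes cldna differed by -0.46 with each compound, krt4 and krt5 by 0, and epcam by -0.06 with BcP and 0.0023 with 3-OHBcP. Among leukocyte genes mpx differed by 0.48 with BcP and -0.35 with 3-OHBcP, ptprc by 0.06 and -0.23, and lcp1 by 0.07 and 0.06. The red blood cell marker hbaa1 differed by 0.37 with BcP and 0.03 with 3-OHBcP. The pigment cell marker dct, weak at 4.14 to 4.34, differed by 0.20 with each compound. Whether cell makeup had a part in the results was not tested. In whole scales, fewer cells of a type and less RNA per cell cannot be told apart.

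Ribosomal protein genes had nearly the same signal on all 3 arrays. With BcP, 72 of 73 lay within 1.1-fold of control, and with 3-OHBcP all 73 did. For comparison, 72.5% of all named genes lay within 1.1-fold with BcP and 77.1% with 3-OHBcP. The one gene beyond 1.1-fold with BcP was rps27l, which was lower, where 11.3% of all named genes were lower by that much and 16.2% higher. With 3-OHBcP no ribosomal protein gene was 1.1-fold higher, against 11.9% of all named genes, or 1.1-fold lower, against 10.9%. The SD of the differences across the 73 genes was 0.05 with BcP and 0.03 with 3-OHBcP, against 0.16 and 0.13 across all named genes. With each array centred on its median, 1 large-subunit and 1 small-subunit gene were at least 1.1-fold lower with each compound. Centring lowers every difference from control, and the shares of all named genes above are for values that were not centred.

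**Figure D1:**
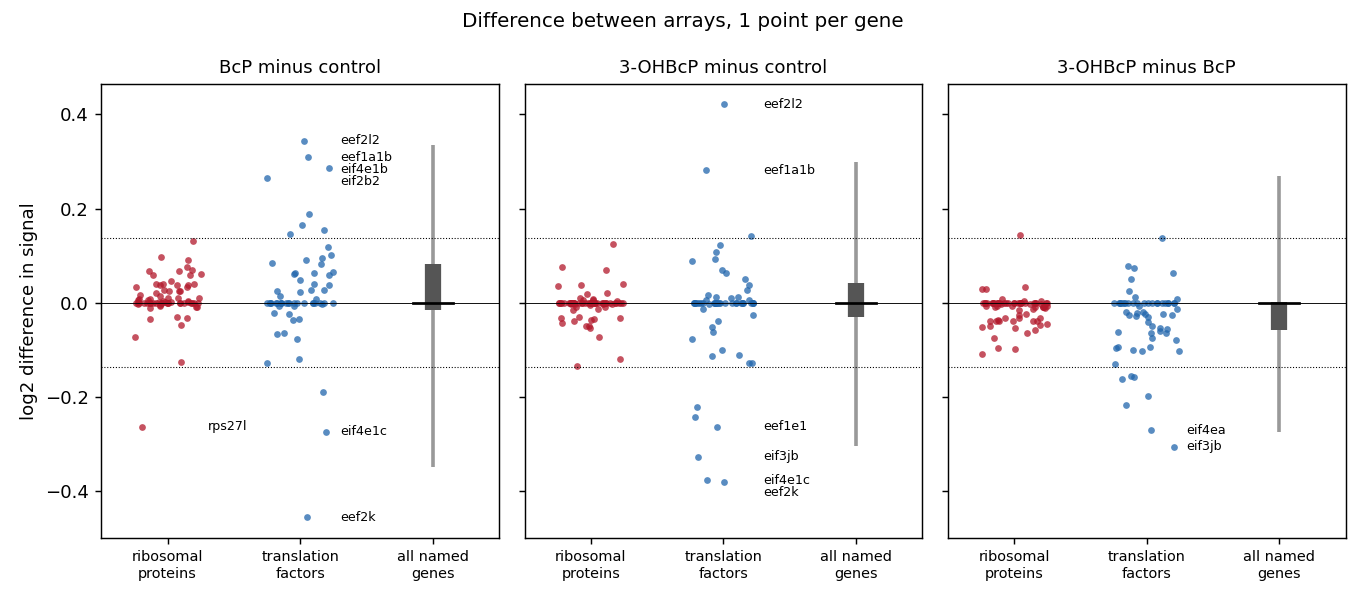
Log2 difference in signal (vertical axis) for 73 ribosomal protein genes, 64 translation factor genes and all 8793 named genes, in the 3 comparisons. Points are genes with sideways scatter for sight only; for all named genes the thick bar spans the middle 50%, the thin line the middle 95% and the black mark the median; dotted lines stand at 1.1-fold. Ribosomal proteins crowd around 0, with rps27l alone beyond the dotted lines for BcP, while factors reach -0.46 (eef2k) and 0.42 (eef2l2).

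Probe sets of the ribosomal proteins were among the bright ones on these arrays. Their signals ran from 8.91 to 13.72, where the brightest probe set of any kind reached 14.09, and 69 of 73 had a mean at or above 12. Differences are smaller among bright genes in general, so the 69 were set beside the 93 genes with a mean at or above 12 that are neither ribosomal proteins nor factors, a limit chosen after seeing the data. The 4 factors at that level (eef1a1l1, eef1b2, eef1g and eef2b) are left out of both counts. All 69 ribosomal proteins were within 1.1-fold of control with BcP, and 83 of the 93 non-members (89.2%) were. With 3-OHBcP the counts were 69 of 69 and 86 of 93 (92.5%). The median absolute difference with BcP was 0.0086 for these ribosomal proteins and 0.0208 for the 93 non-members. Over all 3 arrays, 18 of the 73 ribosomal protein genes held 1 value throughout, namely rpl5b, rpl7a, rpl12, rpl26, rpl27a, rpl35a, rpl36, rpl36a, rpl39, rps2, rps6, rps10, rps14, rps18, rps20, rps25, rps26l and rps29. That is 24.7% of them, against 20.9% of all named genes.

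**Figure D2:**
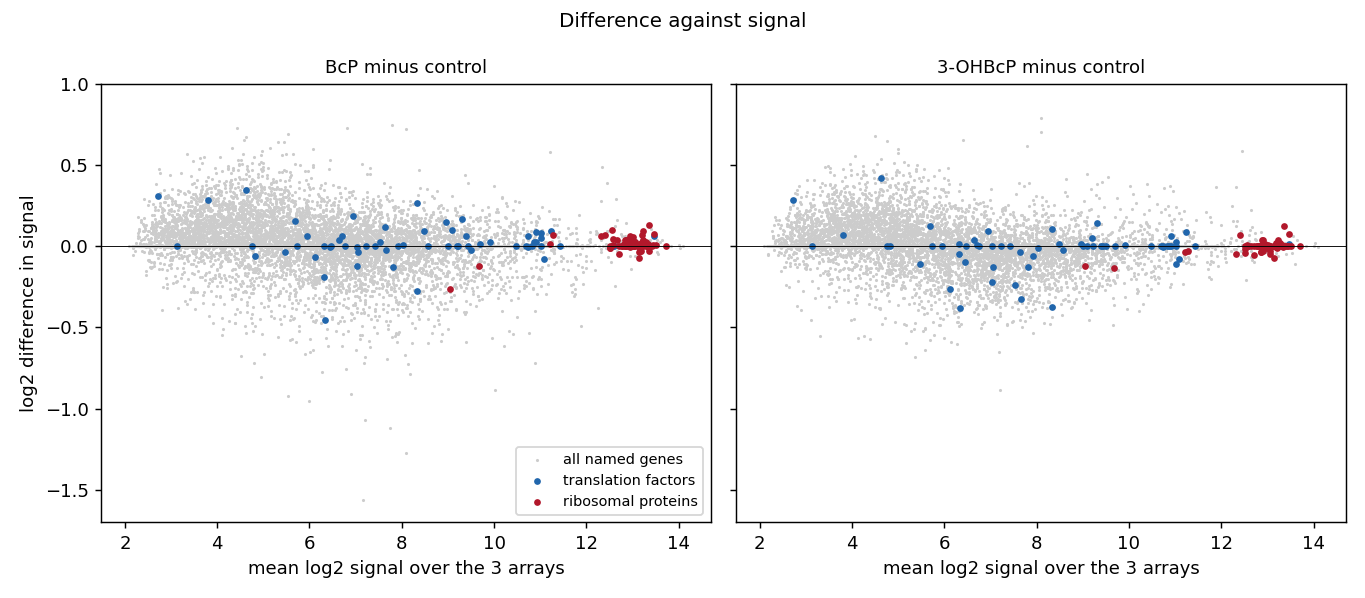
Log2 difference from control (vertical axis) against mean log2 signal over the 3 arrays (horizontal axis) for BcP on the left and 3-OHBcP on the right, with all named genes in grey, translation factors in blue and ribosomal proteins in red. Of the 73 ribosomal proteins, 69 sit at or above 12 and close to the zero line, while factors spread from 2.51 to 13.50 in signal.

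The signs of such small differences moved with the scaling. With BcP, 40 of 73 ribosomal proteins were higher than control, 13 lower and 20 equal, against 43.5% higher, 28.1% lower and 28.4% equal among all named genes. The list's median was 0.0014, against 0 for all named genes. With each array centred on its median, 11 were higher and 62 lower, since centring lowers every BcP difference by 0.05. After quantile normalization the split was 33 higher and 33 lower. With 3-OHBcP, 14 were higher, 24 lower and 35 equal, against 34.3%, 31.3% and 34.4% of all named genes, and the median was 0. Centring turned that to 6 higher and 67 lower, and removing the trend with signal to 38 higher and 35 lower. No common direction is given for these genes on that account.

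By subunit, 27 of 45 large-subunit genes were higher with BcP, 7 lower and 11 equal (median 0.0060). Of 28 small-subunit genes 13 were higher, 6 lower and 9 equal with BcP (median 0). Among all named genes 43.5% were higher, 28.1% lower and 28.4% equal with BcP. With 3-OHBcP, the large subunit had 11 higher, 16 lower and 18 equal (40.0%), and the small subunit 3 higher, 8 lower and 17 equal (60.7%). The shares of all named genes with 3-OHBcP were 34.3% higher, 31.3% lower and 34.4% equal. The difference between the subunits was not tested. With each array centred, 37 large-subunit and 25 small-subunit genes were lower with BcP, and after quantile normalization 21 and 12 were.

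The ribosomal protein gene farthest above control was rpl3, whose product lies near the peptidyl transferase centre. Its signal was 13.41 with BcP and 13.41 with 3-OHBcP, against 13.28 in control, a difference of 0.13 for each compound. Both treated arrays were above control by about the same amount, and a second rpl3 probe set differed by 0.10 for each. Next with BcP came rpl24, a protein of the subunit interface, at 12.62 against 12.52 in control (0.10). Its signal with 3-OHBcP was 12.52, level with control. The structural gene rpl6 stood at 13.28 with BcP and 13.22 with 3-OHBcP, against 13.18 in control. The gene rps4x had 13.50 with either compound, against 13.42 in control, and rps26, for a protein at the mRNA exit channel, 12.42 with either, against 12.35 in control. These 2 small-subunit genes were again equally above control on both treated arrays, by 0.07.

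Below control, the farthest were 2 genes whose names mark them as relatives of a core protein. The gene rps27l, a relative of rps27 that the tumour suppressor p53 induces in human cells, had a signal of 8.91 with BcP and 9.06 with 3-OHBcP, against 9.18 in control (-0.26 and -0.12). The gene rpl7l1, a relative of rpl7, stood at 9.64 with BcP and 9.63 with 3-OHBcP, against 9.77 in control (-0.12 and -0.13). Both are among the 4 ribosomal protein genes with a mean signal under 12, the others being rpl22l1 (0.01 and -0.04) and rps27.2 (0.07 and -0.03). After them came rpl38, whose product in mice affects the translation of Hox mRNAs, at 13.11 on both treated arrays against 13.18 in control, and rpl37 (-0.05 with each compound).

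Ribosomal proteins known for roles beyond the core structure were close to control. The gene rps6, whose product is phosphorylated by S6 kinase, had 12.78 on all 3 arrays. The stalk gene rplp0 stood at 13.51 with BcP and 13.50 with 3-OHBcP, against 13.50 in control, and its partner rplp2 differed by 0.04 and 0. The genes rpl5a, rpl5b and rpl11, whose products bind the small ribosomal RNA of the large subunit and, when free, the p53 regulator Mdm2, differed from control by 0.01, 0 and 0.03 on the BcP array and by 0 each on the 3-OHBcP array. The gene rps19, mutated in human Diamond-Blackfan anaemia, differed by 0.0024 with BcP and 0 with 3-OHBcP. The ubiquitin fusion gene rps27a differed by -0.03 with BcP. For rps3 the value was 0.04 with BcP, and rpsa, which in mammals is also known as a laminin receptor, differed by -0.0042 with BcP and 0 with 3-OHBcP. The apart gene rps19bp1 had 6.77 with BcP and 6.59 with 3-OHBcP, against 6.87 in control (-0.10 and -0.28).

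Translation factors varied more between the arrays than ribosomal proteins, but less than all named genes. Within 1.1-fold of control were 82.8% of factors with BcP and 85.9% with 3-OHBcP, against 72.5% and 77.1% of all named genes. The SD of their differences was 0.12 with each compound, against 0.16 and 0.13. Their signals ran from 2.51 to 13.50, so factors and ribosomal proteins were not alike in signal. With BcP, 8 of 64 (12.5%) were at least 1.1-fold higher than control and 3 (4.69%) at least 1.1-fold lower, against 16.2% and 11.3% of all named genes. With 3-OHBcP, 3 (4.69%) were higher and 6 (9.38%) lower by that much, against 11.9% and 10.9%. At 1.2-fold, 4 were higher and 2 lower with BcP (5.32% and 4.59% of all named genes, 9.92% together), and 2 were higher and 4 lower with 3-OHBcP (3.45% and 3.71%). No ribosomal protein or factor was 1.5-fold higher or lower than control, a size reached by 0.535% of all named genes with BcP. With 3-OHBcP 0.091% of all named genes were 1.5-fold higher and 0.0796% lower, 0.171% together. One control array serves both sets of differences, so they are not independent. Without regard to size, 28 factors were higher, 16 lower and 20 equal with BcP, against 43.5%, 28.1% and 28.4% of all named genes. With 3-OHBcP 18 factors were higher, 18 lower and 28 equal, against 34.3%, 31.3% and 34.4%. Centring each array on its median gave 20 higher and 44 lower with BcP and 11 higher and 53 lower with 3-OHBcP, while quantile normalization gave 47 higher and 16 lower with BcP and 38 higher and 24 lower with 3-OHBcP. Of the 64 factors, 58 passed the level of the median probe set (log2 5.35), and 6 did not. The 6 include 3 of the 4 factors that were 1.2-fold higher with BcP (eef2l2, eef1a1b and eif4e1b) and both of those with 3-OHBcP (eef2l2 and eef1a1b). In all, 17 of the 64 factors (26.6%) held 1 value on all 3 arrays, against 20.9% of all named genes.

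**Figure D3:**
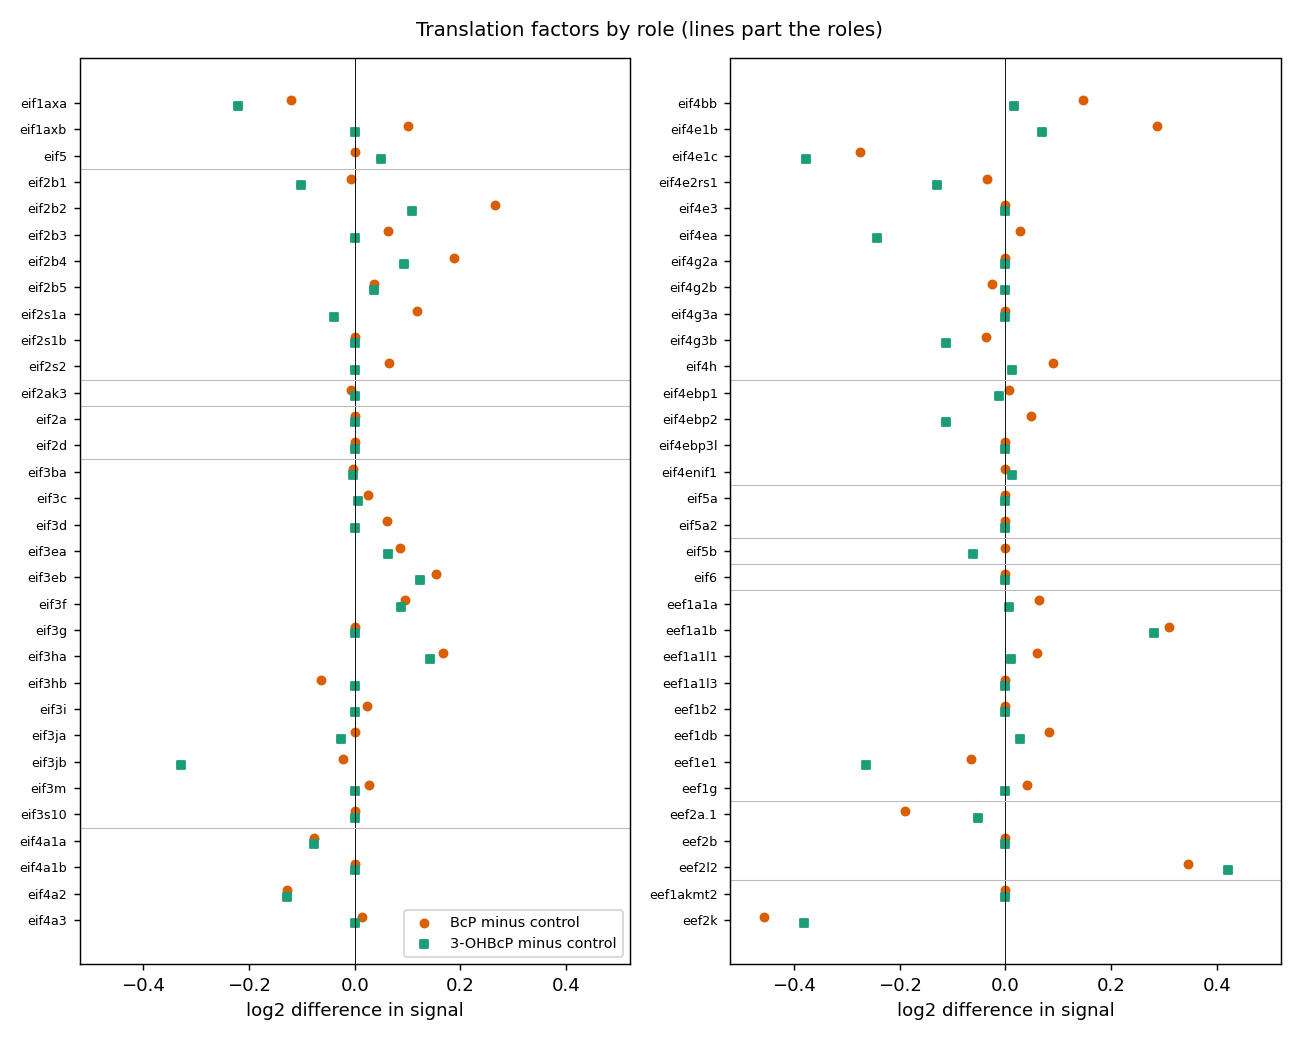
Log2 difference from control (horizontal axis) for each of the 64 translation factors, with BcP as circles and 3-OHBcP as squares. Genes run down the page by role, from start-codon and initiator tRNA factors to elongation factors, and many sit at 0. By the probe sets drawn, eef2k and eif4e1c lie to the left for both compounds, and eif3jb, eef1e1, eif4ea and eif1axa for 3-OHBcP in particular. A second eif1axa probe set, not drawn, read -0.20 with each compound, and a second eif4e1c probe set 0 with BcP and -0.23 with 3-OHBcP.

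The factor farthest below control was eef2k, the kinase that phosphorylates elongation factor 2 and thereby slows elongation. Its signal was 6.17 with BcP and 6.24 with 3-OHBcP, against 6.62 in control. These are differences of -0.46 and -0.38, or 1.37-fold and 1.30-fold lower, and both treated arrays lay below control. Its target genes did not share that size. The gene eef2b held 12.59 on all 3 arrays, and eef2a.1 had 6.20 with BcP and 6.34 with 3-OHBcP, against 6.39 in control (-0.19 and -0.05). Another relative, eef2l2, had a weak signal of 4.72 with BcP and 4.80 with 3-OHBcP, against 4.37 in control (0.34 and 0.42), below the level of the median probe set, and its 2 other probe sets read 0.15 and -0.0028 from control on the BcP array, and 0.02 and -0.06 on the 3-OHBcP array. The only probe set of eef2k is marked A in its name. At least 1.1-fold lower with BcP were 3 of 24 factors with probe sets so marked (eef2k, eif4e1c and eef2a.1). Of 40 factors with probe sets marked S, 0 were. The shares among all named genes were 13.1% for A and 9.41% for S. With 3-OHBcP 3 of the 24 and 3 of the 40 were lower by that much, against 12.3% and 9.48% of all named genes.

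The elongation factor that carries aminoacyl tRNA was near control. Its gene eef1a1l1 stood at 13.50 with BcP and 13.45 with 3-OHBcP, against 13.44 in control. The exchange factor genes eef1b2, eef1g and eef1db were 0, 0.04 and 0.08 above control on the BcP array and 0, 0 and 0.03 on the 3-OHBcP array. Among eEF1 genes above the level of the median probe set, the farthest from control with 3-OHBcP was eef1e1, whose product in mammals belongs to the aminoacyl tRNA synthetase complex, at 6.16 with BcP and 5.97 with 3-OHBcP, against 6.23 in control (-0.07 and -0.26). Of all 8 eEF1 genes, 5 were higher, 1 lower and 2 equal with BcP, against 43.5%, 28.1% and 28.4% of all named genes. With 3-OHBcP 4 of the 8 were higher, 1 lower and 3 equal, against 34.3%, 31.3% and 34.4%. The weak eef1a1b probe set read 2.82 with BcP and 2.79 with 3-OHBcP, against 2.51 in control. Centred, the 8 genes were 4 higher and 4 lower with BcP.

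Among the cap-binding genes, eif4e1c had 8.28 with BcP and 8.18 with 3-OHBcP, against 8.55 in control (-0.27 and -0.38, or 1.21-fold and 1.30-fold lower). Its second probe set differed by 0 with BcP and by -0.23 with 3-OHBcP, so the BcP difference was not seen there. The gene eif4ea, another form of the cap-binding protein, stood at 7.64 with BcP and 7.36 with 3-OHBcP, against 7.61 in control (0.03 and -0.24). The 3-OHBcP array was thus the lowest of the 3 for both genes. The relative eif4e1b, known from oocytes in mammals, was weak on all arrays (3.98 with BcP and 3.76 with 3-OHBcP, against 3.69 in control), and eif4e3 held 7.42 on each. Of the 15 eIF4 genes, 5 were higher, 6 lower and 4 equal with BcP, against 43.5%, 28.1% and 28.4% of all named genes. With 3-OHBcP 3 of the 15 were higher, 6 lower and 6 equal, against 34.3%, 31.3% and 34.4%. Centred, 12 were lower with BcP and 14 with 3-OHBcP, and after quantile normalization 5 and 7 were.

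Further genes of the cap complex lay on either side of control. The gene eif4bb, for a cofactor of the helicase, read 9.04 with BcP and 8.91 with 3-OHBcP, against 8.90 in control (0.15 and 0.02). The RNA helicase genes eif4a1a and eif4a2 differed by -0.08 and -0.13 with each compound, and eif4a1b by 0. A second eif4a1a probe set, at 8.01 with BcP and 8.01 with 3-OHBcP against 7.79 in control, differed the other way, by 0.21. The gene eif4g2a, which encodes a scaffold that in mammals serves cap-independent translation, was at 9.43 on all arrays by its brighter probe set. Its other probe set read 7.17 with BcP and 6.88 with 3-OHBcP, against 7.27 in control (-0.10 and -0.40). The gene eif4ebp2, for a repressor that binds the cap-binding protein, was at 11.09 with BcP and 10.93 with 3-OHBcP, against 11.04 in control. The genes eif4ebp1 and eif4ebp3l, of the same kind, were at 0.01 and 0 from control on the BcP array, and at -0.01 and 0 on the 3-OHBcP array.

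**Figure D4:**
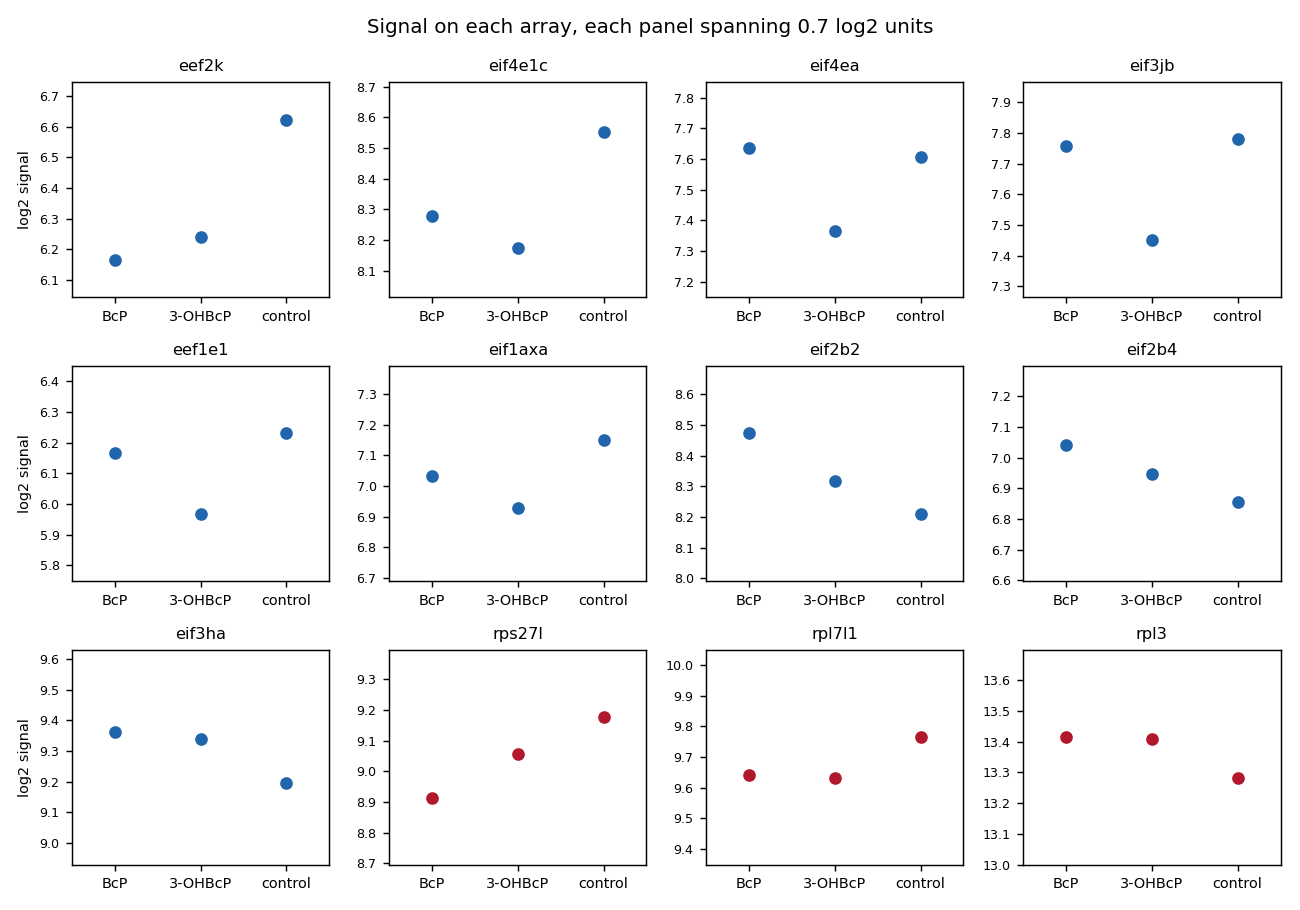
Log2 signal of 9 translation factors (blue) and 3 ribosomal proteins (red) on the BcP, 3-OHBcP and control arrays, 1 point per array. Every panel spans 0.7 log2 units, so distances compare across panels. The signal of eef2k and eif4e1c was below control on both treated arrays, and that of eif4ea and eif3jb on the 3-OHBcP array mainly (-0.24 and -0.33). That of eif2b2, eif2b4, eif3ha and rpl3 was above control on both. A second eif4e1c probe set, not drawn, was equal to control with BcP.

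Genes of the initiator tRNA factor eIF2 and its exchange factor eIF2B were mostly above control with BcP. Of 8, 6 were higher, 1 was lower and 1 equal, with a median of 0.06, where 43.5% of all named genes were higher. The farthest was eif2b2, a subunit of the regulatory core of eIF2B, with 8.47 with BcP and 8.32 with 3-OHBcP, against 8.21 in control (0.26 and 0.11). The subunit gene eif2b4 had 7.04 with BcP and 6.95 with 3-OHBcP, against 6.85 in control. The genes for the eIF2 subunits, eif2s1a, eif2s1b and eif2s2, stood at 0.12, 0 and 0.06 from control on the BcP array, and at -0.04, 0 and 0 on the 3-OHBcP array. With 3-OHBcP the 8 genes were 3 higher, 2 lower and 3 equal, against 34.3%, 31.3% and 34.4% of all named genes. Centred, the 8 genes were 5 higher and 3 lower with BcP, and 3 higher and 5 lower with 3-OHBcP. After quantile normalization 8 were higher with BcP and 7 with 3-OHBcP. The eIF2 kinase of the endoplasmic reticulum, eif2ak3, was at 7.02 with BcP and 7.03 with 3-OHBcP, against 7.03 in control.

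The eIF3 complex, a scaffold on the small subunit, had 14 genes on the array. With BcP 8 were higher, 3 lower and 3 equal, against 43.5%, 28.1% and 28.4% of all named genes. With 3-OHBcP 5 of the 14 were higher, 3 lower and 6 equal, against 34.3%, 31.3% and 34.4%. The highest was eif3ha at 9.36 with BcP and 9.34 with 3-OHBcP, against 9.20 in control (0.17 and 0.14), followed by eif3eb (0.15 and 0.12). The loosely bound subunit gene eif3jb read 7.76 with BcP and 7.45 with 3-OHBcP, against 7.78 in control (-0.02 and -0.33). It was therefore below control on the 3-OHBcP array and close to control on the BcP array. The subunit gene eif3f differed by 0.09 with each compound, and eif3g and eif3s10 were equal on all 3 arrays. Centred, 9 of the 14 were lower with BcP and 10 with 3-OHBcP, and after quantile normalization 1 and 5 were.

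In start-codon selection, eif1axa had 7.03 with BcP and 6.93 with 3-OHBcP, against 7.15 in control (-0.12 and -0.22), and its second probe set differed by -0.20 with each. Its copy eif1axb differed by 0.10 and 0, while 2 further eif1axb probe sets differed by 0 and 0, and by -0.15 and -0.18. The genes eif5a and eif5a2, whose products help the ribosome past difficult peptide stretches, and eif6, which keeps the subunits apart, were equal on all 3 arrays by the probe sets used.

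The direct comparison of the compounds at the same dose and time used no control array. Here 35 of 64 factors were lower with 3-OHBcP than with BcP, 8 were higher and 21 equal, against 39.8%, 25.5% and 34.7% of all named genes. The median was -0.02. At 1.1-fold, 7 factors were lower and 1 was higher, against 11.3% and 7.52% of all named genes. At 1.2-fold, 2 were lower and none higher, against 2.95% and 2.62% (5.56% together), and none was 1.5-fold apart, against 0.444%. The largest differences were those of eif3jb (7.45 with 3-OHBcP against 7.76 with BcP, -0.31), eif4ea (7.36 with 3-OHBcP against 7.64 with BcP, -0.27) and eef1e1 (5.97 with 3-OHBcP against 6.16 with BcP, -0.20) among genes above the level of the median probe set. On the other side, again above that level, eef2a.1 was higher with 3-OHBcP (6.34 against 6.20 with BcP, 0.14), and eef2k (0.07) and eif5 (0.05) followed. Below that level, eef2l2 and eif3hb were higher by 0.08 and 0.06. Centring each array turned the split to 33 lower and 31 higher, and quantile normalization to 43 lower and 21 higher. Of the ribosomal proteins, 40 were lower, 7 higher and 26 equal, with a median of -0.0024. Only rps27l was beyond 1.1-fold (0.14), with rpl29 (-0.11), rps27.2 (-0.10) and rpl24 (-0.10) next below. That split became 23 lower and 50 higher with each array centred, and 29 lower and 35 higher after quantile normalization. The compounds differ by a hydroxyl group. Only 1 pair was compared, and no interval of any difference can be given from 1 array each.

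Duplicate copies of a factor gene did not always have the same value. Zebrafish keep many such pairs from a genome duplication, and 11 pairs of members were on the array by name. In eif3jb and eif3ja the 3-OHBcP minus control differences were -0.33 and -0.03. In eif1axa and eif1axb the values with 3-OHBcP were -0.22 and 0. Further eif1axb probe sets read 0 and -0.18 with 3-OHBcP, so the contrast between these copies depended on the probe set. In eif3ha and eif3hb the values with 3-OHBcP were 0.14 and 0, with eif3hb below the level of the median probe set. The pair rpl5a and rpl5b differed by 0.01 and 0 with BcP, and eif4a1a and eif4a1b by -0.08 and 0, while a second eif4a1a probe set differed by 0.21. Whether the probes of a gene also bind its copy was not tested. Of the 16 member genes with several probe sets, 10 had at least 2 at or above the level of the median probe set. Among these 10, probe sets differed in sign for 2 genes with BcP and for 2 with 3-OHBcP, and the largest gap was 0.40, that of eif4g2a with 3-OHBcP.

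Genes that serve translation without bearing a ribosome or factor name were counted next. Of 24 listed cytosolic aminoacyl tRNA synthetase genes and partners, 19 were measured. Synthetases charge tRNAs with amino acids, and the 19 genes also include the partners aimp1a and aimp2. Of the 19, 17 were higher with BcP and 2 lower (median 0.06), where 43.5% of all named genes were higher. With 3-OHBcP 5 were higher, 8 lower and 6 equal, against 34.3%, 31.3% and 34.4% of all named genes. Centred, 12 were higher and 7 lower with BcP, and 3 higher and 16 lower with 3-OHBcP. Centring lowers every difference from control, for all named genes as well. After quantile normalization 18 were higher and 1 lower with BcP, and 13 higher and 6 lower with 3-OHBcP. Between the compounds 17 of 19 were lower with 3-OHBcP than with BcP (median -0.07), where 39.8% of all named genes were lower, and the BcP array is shared with the first of these counts. There were also 17 lower after quantile normalization and after removal of the signal trend, and 13 lower and 6 higher with each array centred. Farthest was vars1, the valyl tRNA synthetase gene, at 6.56 with 3-OHBcP and 6.90 with BcP, against 6.60 in control. At least 1.1-fold lower with 3-OHBcP than with BcP were 4 of the 19 (21.1%), against 11.3% of all named genes.

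Of 78 listed ribosome biogenesis genes 62 were measured, of which 35 were lower than control with 3-OHBcP, 6 higher and 21 equal (median -0.03), and 17 were at least 1.1-fold lower, where 31.3% and 10.9% of all named genes were so. Most of the 62 lay at or above the level of the median probe set, where the shares among named genes were 41.9% and 15.0%. The box C/D snoRNP gene nop58 read 8.94 with 3-OHBcP, against 9.39 in control (-0.46), and nip7, a factor of large-subunit assembly, 7.30 with 3-OHBcP, against 7.75 in control (-0.45). On the other side stood bop1 (0.48), also of large-subunit assembly, and the helicase gene ddx54 (0.12). Centred, 58 were lower and 4 higher with 3-OHBcP, after quantile normalization 38 and 24, and after removal of the signal trend 41 and 21. Centring counts every gene equal to control as lower, so the shares of all named genes above do not apply to these splits. With BcP the 62 genes were 30 higher, 19 lower and 13 equal, against 43.5%, 28.1% and 28.4% of all named genes. Among named genes at or above the level of the median probe set, the shares were 37.7%, 37.1% and 25.2%. The gene bop1 stood at 0.49 with BcP and sbds, mutated in human Shwachman-Diamond syndrome, at -0.45. Centred, the 62 genes were 23 higher and 39 lower with BcP, against 36 and 25 after quantile normalization. Set directly against BcP, 42 were lower with 3-OHBcP, 5 higher and 15 equal, against 39.8%, 25.5% and 34.7% of all named genes. Among named genes at or above the level of the median probe set, the shares were 42.9%, 26.1% and 31.0%. Of the 62 genes, 24 were at least 1.1-fold lower with 3-OHBcP than with BcP. That size was reached by 11.3% of all named genes and by 12.5% of those at or above the level of the median probe set. Centred, 36 were lower and 26 higher, and after quantile normalization 39 and 23. Under centring, quantile normalization and removal of the signal trend, between 21 and 23 of the 62 were at least 1.1-fold lower in that comparison. The 11.3% and 12.5% above are for values as deposited, so these counts have no matching share here.

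**Figure D5:**
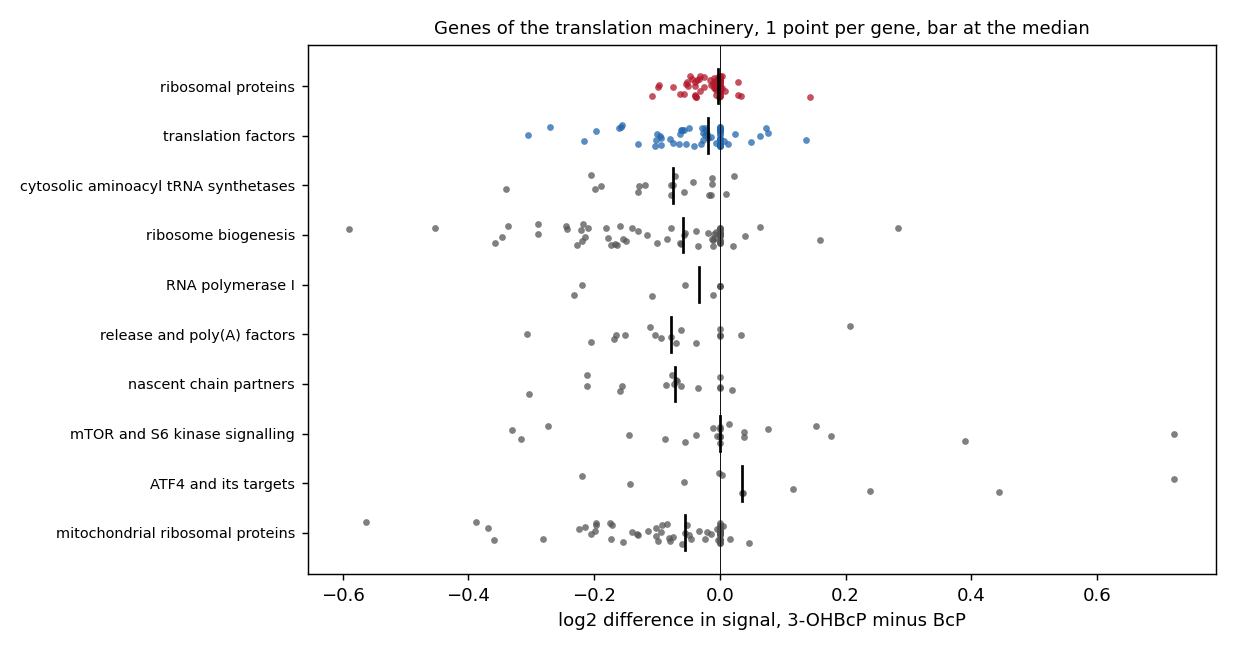
Log2 difference of 3-OHBcP minus BcP (horizontal axis) for genes of the translation machinery by list, 1 point per gene, with a black bar at each list's median. Ribosomal proteins crowd most tightly around 0, and the list medians run from -0.08 (release and poly(A) factors) through -0.07 (synthetases and nascent chain partners) and -0.06 (ribosome biogenesis and mitochondrial ribosomal proteins) to 0.04 (ATF4 list).

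The remaining lists are read against all named genes, of which 43.5% were higher and 28.1% lower with BcP, 34.3% higher and 31.3% lower with 3-OHBcP, and 25.5% higher and 39.8% lower for 3-OHBcP minus BcP. These shares are for the values as deposited and do not apply to the centred or quantile normalized counts in brackets. Of 22 mTOR and S6 kinase signalling genes, 9 were higher and 10 lower with BcP, and 6 higher and 10 lower with 3-OHBcP (centred, 6 and 16, and 5 and 17, and after quantile normalization 12 and 10 for each). The GTPase gene rraga, which brings mTOR to the lysosome, read 7.03 with BcP and 7.06 with 3-OHBcP, against 7.41 in control. The translation inhibitor gene pdcd4a was lower with BcP alone (7.54, against 7.93 in control). The transcription factor gene atf4a, whose mRNA is translated when eIF2 is phosphorylated, was 11.11 with BcP and 11.11 with 3-OHBcP, against 10.87 in control, while its copy atf4b was lower at 10.74 with BcP and 10.78 with 3-OHBcP, against 10.88 in control. Of 11 ATF4 list genes 4 were higher and 7 lower with BcP, and 7 higher and 3 lower with 3-OHBcP (centred, 4 and 7, and 6 and 5). The stress gene ddit4, an inhibitor of mTOR and a member of both lists, was weak, at 3.67 with BcP and 4.39 with 3-OHBcP, against 4.22 in control, and was the point farthest to the right in both lists in the plot of 3-OHBcP minus BcP. The small-subunit partner rack1 held 13.19 on all 3 arrays. Among 17 release and poly(A) factors, 11 were higher and 3 lower with BcP, led by pabpc4 (0.42) and pelo (0.28), and 6 were higher and 6 lower with 3-OHBcP (centred, 10 and 7, and 5 and 12, and after quantile normalization 14 and 3, and 9 and 8). Of 16 nascent chain partners, 9 were higher and 5 lower with BcP, and 2 higher and 9 lower with 3-OHBcP (centred, 7 and 9, and 1 and 15, and after quantile normalization 11 and 5, and 5 and 10). The 8 RNA polymerase I genes had 5 higher and 1 lower with BcP, and 2 higher and 4 lower with 3-OHBcP (centred, 4 and 4, and 1 and 7, and after quantile normalization 6 and 1, and 4 and 4). A list of 11 other mRNAs known in mammals for an oligopyrimidine tract overlaps the lists above, since pabpc1a, pabpc1b, tpt1, btf3, naca, npm1a and rack1 stand in those as well. Of its genes 6 were higher and 3 lower with BcP, and 4 higher and 3 lower with 3-OHBcP (centred, 6 and 5, and 4 and 7, and after quantile normalization 7 and 4, and 8 and 3). For 3-OHBcP minus BcP, the release list had 2 higher and 12 lower, the nascent chain list 1 and 12, the RNA polymerase I list 0 and 5, the oligopyrimidine list 2 and 7, the mTOR list 8 and 9 and the ATF4 list 7 and 4.

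Mitochondrial ribosomal proteins work in another compartment. Of 59 genes, 10 (16.9%) were at least 1.1-fold higher with BcP and 2 (3.39%) lower, against 16.2% and 11.3% of all named genes. With 3-OHBcP 1 (1.69%) was higher and 9 (15.3%) lower by that much, against 11.9% and 10.9%. The SD of their differences was 0.13 with BcP and 0.14 with 3-OHBcP, near the 0.16 and 0.13 of all named genes and above the 0.05 and 0.03 of the cytosolic proteins. Their signals lay between 2.92 and 8.40, a range that the cytosolic proteins do not share. The difference between these groups of genes was not tested.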

How the data were processed

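Each of the 3 scale samples (BcP, 3-OHBcP and control) was hybridised to 1 Affymetrix zebrafish array. The authors deposited 1 log2 signal per probe set and array, read as log2 from its range, and per the submitters' processing notes the software was Affymetrix Expression Console. No source used here gives its version, summarization or normalization. Control probe sets (115 of 15617) were left out. Gene names came from the platform annotation (10795 probe sets with 1 symbol, 135 with several, 4572 with none), updated through gene identifiers to RefSeq (GRCz12tu), which matched 10711 and changed no member's symbol. Python 3.11.15, pandas 2.3.3 and statsmodels 0.14.6 (lowess, span 0.3) were used. The spread across a list is an SD over genes, not an error. All 138 members counted, without a level filter, and no coordinates or sequences were used.

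With 1 array per group no test was made, and the number of arrays limits the precision. Counts use differences above, below or at 0 and folds of 1.1, 1.2 and 1.5. Shares of all named genes are for the values as deposited, without centring or other scaling. Named members are the 4 highest and 4 lowest ribosomal proteins and factors per comparison above the median probe set, and 34 genes at any level; others were added for paralogue pairs, complexes and contrast after their values were seen. Of 43 genes listed at any level, 9 had no probe set under the name listed and were not analysed under that name. From other lists the 2 highest and 2 lowest genes could be named. Members and lists were chosen with earlier results of these data known. The counts at 1.5-fold were tested on simulated data with shifts added to known genes. The counts at 1.1- and 1.2-fold and the other ways of scaling were not tested so.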

Additional observations from a re-analysis of the deposited data

How the results depend on the processing

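With 1 array per group, no replicate could be left out, and leaving one out was therefore not run. No paired analysis was possible because each group has 1 array and no test was made. The alternatives were an offset of 32 on the linear values, centring each array on its median, quantile normalization, removal of the trend with signal, 2 level filters, averaged probe sets, unique probe sets, the platform's own symbols and, chosen after seeing the data, leaving out probe sets marked A in their names. Centring moved the medians of ribosomal proteins to -0.0447 with BcP, -0.0280 with 3-OHBcP and 0.0157 for 3-OHBcP minus BcP, and those of factors to -0.0461 with BcP and -0.0280 with 3-OHBcP. Of the ribosomal proteins with BcP, 11 were higher and 62 lower under centring, 33 lower after quantile normalization and 44 lower after trend removal. With 3-OHBcP, 6 were higher and 67 lower under centring, 28 higher after quantile normalization and 38 higher after trend removal. For 3-OHBcP minus BcP, 50 were higher and 23 lower under centring, 35 higher after quantile normalization, and 48 higher and 25 lower after trend removal. Of the factors with BcP, 44 were lower under centring, 47 higher after quantile normalization, 33 lower after trend removal, and 7 lower with the 75th percentile filter or without probe sets marked A. None of the 7 that were lower without probe sets marked A was at least 1.1-fold lower. With 3-OHBcP, 11 factors were higher and 53 lower under centring, 38 higher after quantile normalization and 43 higher after trend removal. The 75th percentile filter left 10 higher and 11 lower, and leaving out probe sets marked A 10 higher and 9 lower. For 3-OHBcP minus BcP, 31 factors were higher under centring, 21 after quantile normalization, 30 after trend removal, 2 with the 75th percentile filter and 4 without probe sets marked A, which left 22 lower. Filters leave fewer members to count. The other 143 values for the lists under these alternatives moved less, the counts by under 1.5 times. Among the named members at least 1.1-fold apart, none changed direction in the 71 values with BcP, the 55 with 3-OHBcP and the 75 for 3-OHBcP minus BcP that the alternatives gave. These members were chosen for a difference larger than centring can shift, and filters only drop members. Most alternatives could therefore hardly reverse a sign, and the absence of reversals is no support for the directions. Weak probe sets near background limit 6 of the factors.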
